A study of Drosophila melanogaster with 9 samples.

Results

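The synaptic vesicle and active zone genes of the fly brain were followed across age, as the transcripts of 36 genes that release transmitter, retrieve vesicles or build the release site. A gene was taken where a probe set on the array names it and no other gene, and the probe set with the highest mean stood for the gene. That rule gave 30 of the 36 genes, out of 11982 genes with a probe set of their own. Syt1, Syt4, Syx1A, comt and Nsf2 had no probe set under that name in the annotation used here, and stnB shares its probe set with stnA, so these 6 were not analysed here. RNA came from dissected brains of Drosophila melanogaster that aged naturally on standard food, hybridised to 9 Affymetrix Drosophila 2.0 arrays. There were 3 arrays each from flies aged 3 days (3d), 30 days (30d) and 60 days (60d), and every fly was untreated. Genotype, sex and the number of brains behind an array are not given in the sources used here, so a p-value here reflects array-to-array spread, which may be technical.

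At a synapse, vesicles dock at the active zone, a protein scaffold that holds calcium channels beside them. Calcium entry makes SNARE proteins on vesicle and plasma membrane zip together, helped by Sec1/Munc18 proteins, complexins and synaptotagmins, and the complexes are then pulled apart by the ATPase NSF with its adaptor SNAP. Clathrin, the adaptor AP-2, dynamin and their partners retrieve the membrane to make new vesicles, and flies with faulty shi (dynamin) or cac (the calcium channel) are paralysed by heat.

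All 30 genes passed the filter on low values, a log2 value above 5.71 (the 40th percentile of all values) on at least 3 arrays, and they were tested among 8171 genes. Levels are linear signals as deposited, changes are differences of log2(signal + 1) with their SE from limma, and a gene was called where its adjusted p from limma, Benjamini-Hochberg over all 8171 genes, was under 0.05. In whole brains fewer cells of a type and less RNA per cell cannot be told apart. Among the arrays, 3d replicate 1 stood apart with a log2 ratio of 3' to 5' GAPDH control signal of 5.03 against 1.58 to 2.07 elsewhere. On the first principal component 60d replicate 1 lay at -11.6, where the other 60d arrays lay at 7.1 and 21.7. That component ran with age, from -37.1 to -20.9 at 3d and from 18.1 to 22.8 at 30d. Results are also given without these arrays. Since 60d replicate 1 was the old array nearest the young ones, leaving it out favours larger differences from 3d. Calls kept or added without it are therefore not further support. Median signals ran from 60.6 to 78.3 per array, and precision is limited by having 3 arrays per age.

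In old brains 10 of the 30 genes were lower than in young brains and limma called 0 higher. The 10 called genes were the release genes Rop, alphaSnap, Csp, cpx, Snap25 and Syt7, the vesicle protein Syngr, and AP-2mu, AP-2alpha and Synj of the endocytic machinery. An unadjusted p under 0.05 was reached by 17 in the lower direction and 1 in the higher. Of all 8171 genes 1448 reached it in the lower direction and 1443 in the higher. Over all genes tested 10.5% were called lower and 8.03% higher in that comparison, and the median change was -0.38 for the 30 genes against 0.04 for all genes. At 30d 11 were already lower than at 3d and 1, the dim Dap160, was higher, where 21.3% of all genes were called lower and 21% higher. The median change at 30d was -0.31 for the 30 genes against -0.01 for all genes. The comparisons share the 3d arrays. Of the 10 genes lower at 60d, 9 were also lower at 30d, and the exception was cpx. An F-test over the 3 ages passed 12 of the 30 genes, against 34% of all genes.

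**Figure D1:**
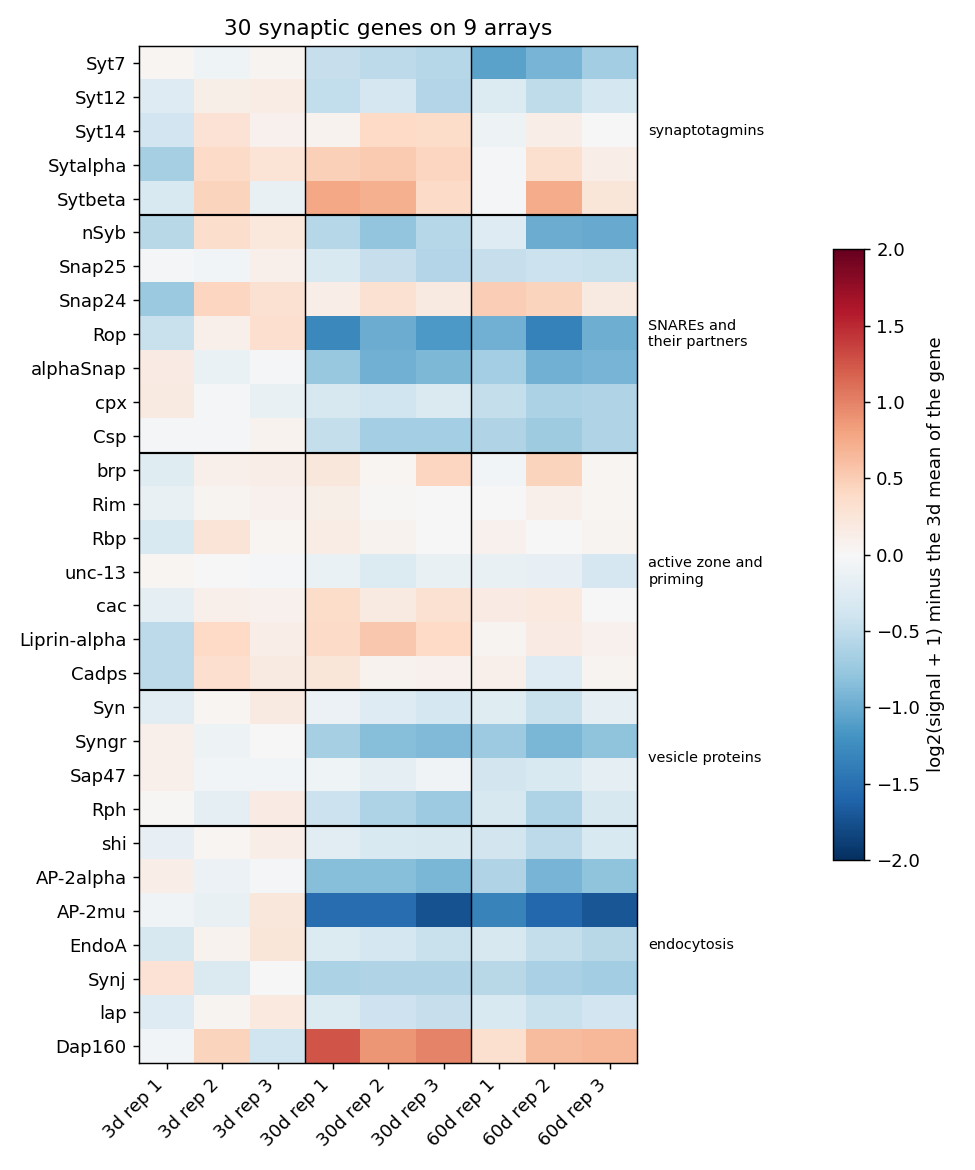
Each row is 1 of the 30 synaptic genes, grouped by role, and each column 1 of the 9 arrays. Colour gives log2(signal + 1) minus the gene's 3d mean. AP-2mu, Rop, alphaSnap, AP-2alpha and Syngr are blue on every 30d and 60d array, the active zone rows are pale, and 21 of the 30 genes on 3d replicate 1 lie below their own 3d mean.

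Without 3d replicate 1 the count at 60d was 15 lower and 0 higher, with all 10 genes kept and Syt12, nSyb, shi, EndoA and lap added. Without 60d replicate 1 it was 12, with nSyb and EndoA added, where 14.4% of all genes were called lower. Without both arrays 17 were lower and 1 higher, and all 10 were again kept. At 30d the lower count was 16 without 3d replicate 1 and 13 without 60d replicate 1, where 29% and 23.8% of all genes were called lower. It was 7 without 3d replicate 3 or without 30d replicate 3, where the shares of all genes were 10.5% and 10.9%. The share of all genes thus moved with the count. For all genes 14.4% were called lower at 60d without 3d replicate 1 and 24.5% without both arrays. The lower count at 60d ran from 7 to 15 when any single array was left out. It was 7 without 60d replicate 3, where 4.68% of all genes were called lower. The higher count at 30d was 3 without 3d replicate 2 and 2 without 60d replicate 1 or 2, and at 60d it was 1 without 3d replicate 2. Of all genes 18.2%, 24.2% and 22.8% were called higher at 30d in these settings, and 8.76% at 60d without 3d replicate 2. Without both first arrays 26.6% of all genes were called higher at 60d.

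The scaling of the arrays moved all genes together. Median centring put the median of all genes at -0.14 for 60d and -0.29 for 30d against 3d, and that of the 30 synaptic genes at -0.54 and -0.57. Of all calls at 60d 43.4% were higher in the deposited scaling, 31.3% after quantile normalization and 18.1% after median centring. For 30d these shares were 49.6%, 35.6% and 18.4%. Relative to those shifts, the number of synaptic genes called lower at 60d was 9 after quantile normalization and 17 after median centring, and at 30d it was 10 and 18. Of all genes 12.1% and 16% were called lower at 60d under these scalings, and 26.4% and 36.1% at 30d. Every called synaptic gene kept its direction under both scalings.

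Roles were assigned after values were seen, so the counts by role, here and below, are descriptions only. Of the 7 SNARE proteins and partners, 5 were lower at 60d and 4 at 30d. Without 60d replicate 3 the count at 60d was 3, where 4.68% of all genes were called lower. Rop is the fly Sec1/Munc18 protein, which binds syntaxin and is needed for fusion. In replicate order, its signal was 218, 319 and 374 at 3d, 121, 148 and 133 at 30d and 151, 115 and 150 at 60d. No array of 30d or 60d reached the lowest 3d array, and the older ages overlapped each other. The change was -1.10 ± 0.20 at 60d, a 2.14-fold lower level (limma adjusted p = 0.00494), and -1.14 ± 0.20 at 30d (limma adjusted p = 0.00325). Without 3d replicate 1, the dimmest 3d array for Rop, the change at 60d was -1.32 ± 0.16 (limma adjusted p = 0.00108).

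alphaSnap is the adaptor through which NSF takes used SNARE complexes apart. It measured 1854, 1512 and 1620 at 3d, 981, 854 and 886 at 30d, and 1039, 854 and 871 at 60d. The lowest 3d array was above every older array. It fell by 0.85 ± 0.14 to 60d and by 0.87 ± 0.14 to 30d on the log2 scale (limma adjusted p = 0.00317 and 0.00256). Csp, the cysteine string protein, is a chaperone on the vesicle that keeps SNAREs competent for release. Its signal went from 1286, 1279 and 1388 at 3d to 946, 823 and 823 at 30d and 869, 800 and 866 at 60d. Here too the older arrays lay below all young arrays, with changes of -0.64 ± 0.13 at 60d and -0.61 ± 0.13 at 30d (limma adjusted p = 0.00733 and 0.00574). The calls for Rop, alphaSnap and Csp at both ages held under all 20 alternatives tried.

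cpx encodes complexin, which binds assembled SNAREs and tunes spontaneous and evoked release. Its signals were 2527, 2152 and 2013 at 3d, 1786, 1679 and 1816 at 30d and 1587, 1439 and 1463 at 60d. The 3 ages did not overlap, and each was lower than the one before it. Only the change at 60d passed (-0.57 ± 0.13, limma adjusted p = 0.015), while that at 30d was -0.34 ± 0.13 (limma adjusted p = 0.0618) and that from 30d to 60d -0.24 ± 0.13 (limma adjusted p = 0.42). The 60d call was lost without 60d replicate 3 and with only the 6 arrays compared (limma adjusted p = 0.0656 and 0.074). Snap25 is the plasma membrane SNARE of nerve terminals. It measured 1816, 1810 and 1999 at 3d, 1524, 1367 and 1248 at 30d and 1366, 1392 and 1381 at 60d, so that all older arrays were below all young ones. The changes were -0.44 ± 0.13 at 60d and -0.45 ± 0.13 at 30d (limma adjusted p = 0.0363 and 0.0196), close to the threshold. The 60d call was lost without 3d replicate 2 or 3, 30d replicate 1, 2 or 3, or 60d replicate 2 or 3 (limma adjusted p = 0.0506, 0.123, 0.0567, 0.0696, 0.0568, 0.0704 and 0.113). The 30d call was lost without 3d replicate 3 or 30d replicate 2 or 3 (limma adjusted p = 0.0765, 0.0688 and 0.0923). After quantile normalization neither Snap25 call held (limma adjusted p = 0.13 at 60d and 0.0985 at 30d). The 60d call was also lost with no filter, with only the 6 arrays compared and with the replicate block (limma adjusted p = 0.0627, 0.12 and 0.0643).

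nSyb, the vesicle SNARE of neurons, and Snap24, a close relative of Snap25, were not called. nSyb measured 326, 608 and 553 at 3d, 321, 277 and 321 at 30d and 399, 239 and 237 at 60d. The first array of 3d was far below the other 3d arrays and the first of 60d above the other 60d arrays, so the ages overlapped at 60d. The change was -0.76 ± 0.25 (limma adjusted p = 0.0567), it was -1.03 ± 0.21 without 3d replicate 1 (limma adjusted p = 0.00896), and -1.28 ± 0.13 without both first arrays (limma adjusted p = 0.000291). Snap24 measured 69.6, 158 and 145 at 3d and 164, 160 and 133 at 60d, a difference of 0.37 ± 0.26 (limma adjusted p = 0.318), with the first 3d array again the lowest of its age. Without that array the difference was 0.00 ± 0.14.

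**Figure D2:**
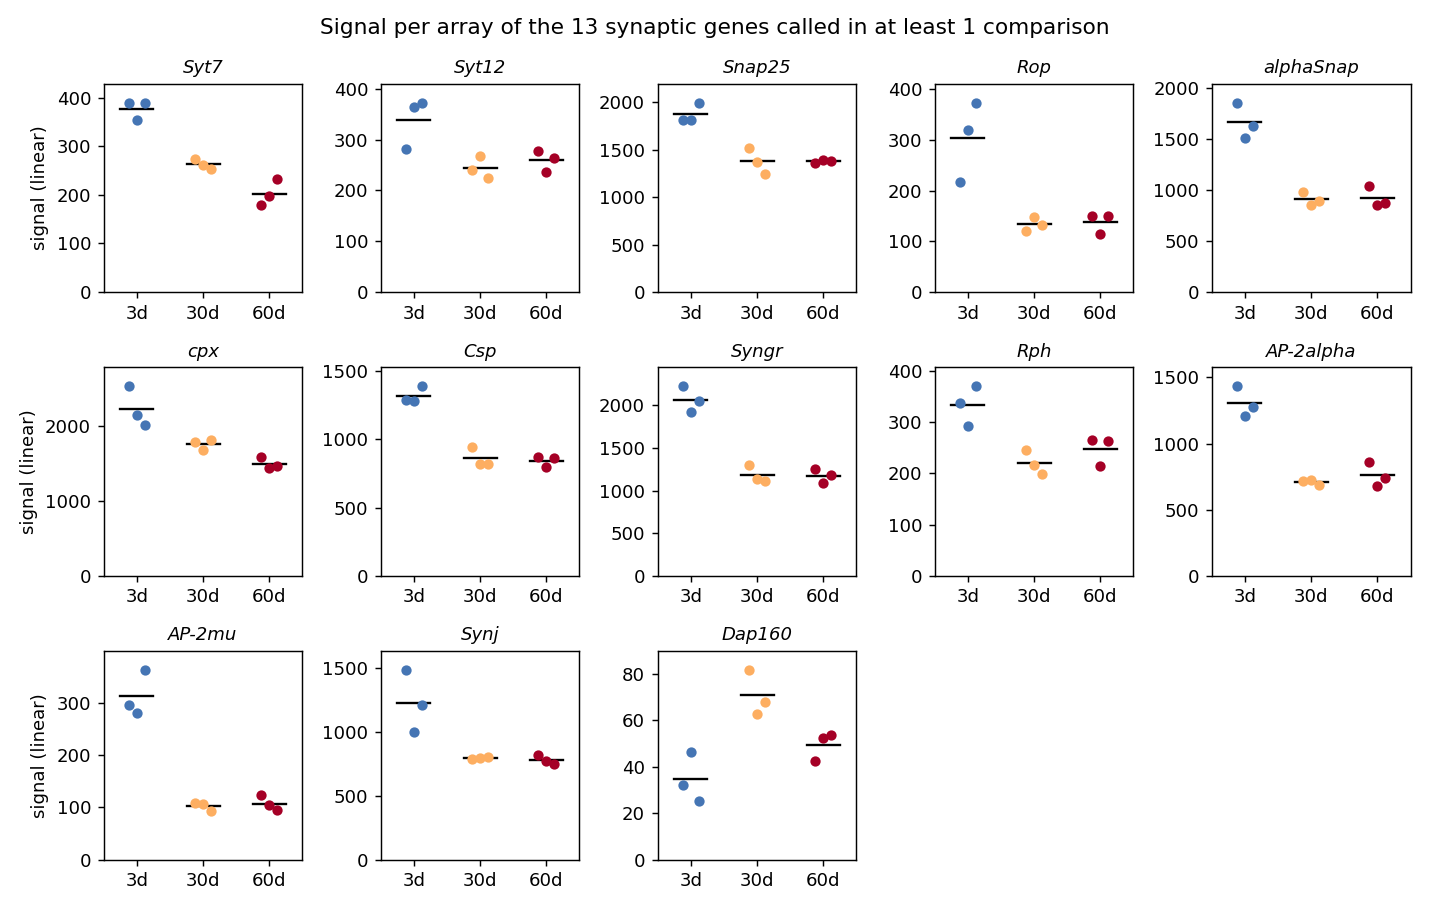
Linear signal (y axis, from 0) of each of the 9 arrays (points, 3 per age) for the 13 genes called in at least 1 comparison, with black lines at the age means. Apart from Dap160, the 30d and 60d points lie below the 3d points, and for Syt7 and cpx every 60d point also lies below every 30d point.

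Among the synaptotagmins, the membrane proteins that include the calcium sensors of release, Syt7 was lower at both ages and Syt12 at 30d. Syt7 read 389, 354 and 390 at 3d, 274, 262 and 253 at 30d and 179, 197 and 232 at 60d. The 3 ages formed 3 separate steps downward. Its change was -0.52 ± 0.14 at 30d and -0.90 ± 0.14 at 60d, 1.87-fold lower (limma adjusted p = 0.014 and 0.0021). The second step, from 30d to 60d, was -0.38 ± 0.14 and did not pass (limma adjusted p = 0.24). At 60d the call held under all 20 alternatives, but at 30d it was lost without 3d replicate 3, 30d replicate 2 or 30d replicate 3 (limma adjusted p = 0.0527, 0.0522 and 0.0594).

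Syt12 read 281, 364 and 373 at 3d, 240, 267 and 224 at 30d and 278, 237 and 264 at 60d. Its older arrays were all below the young ones, by the narrowest margin on 3d replicate 1. The change was -0.47 ± 0.15 at 30d (limma adjusted p = 0.0291) and -0.38 ± 0.15 at 60d (limma adjusted p = 0.101). Without 3d replicate 1 the latter was -0.51 ± 0.13 (limma adjusted p = 0.021). The 30d call was lost without 3d replicate 2 or 3 or 30d replicate 1, 2 or 3 (limma adjusted p = 0.0798, 0.111, 0.0822, 0.054 and 0.112), and with the replicate block (limma adjusted p = 0.0504). Syt14, Sytalpha and Sytbeta were not called, with changes at 60d of 0.00 ± 0.18, 0.15 ± 0.23 and 0.32 ± 0.23. Their 30d differences were 0.28 ± 0.18, 0.47 ± 0.23 and 0.62 ± 0.23, the last with limma adjusted p = 0.0505. With 3d replicate 1 left out these were 0.09 ± 0.15, 0.14 ± 0.13 and 0.47 ± 0.24. Sytbeta was called higher at 30d under 8 alternatives, among them without 3d replicate 2, 60d replicate 1 or 60d replicate 2. For Sytalpha the 30d arrays, at 179, 184 and 173, all exceeded the 3d arrays at 81, 168 and 155.

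Of the 7 endocytic genes 3 were lower at 60d, and at 30d 3 were lower and Dap160 was higher. The lower count at 60d was 6 without 3d replicate 1, where 14.4% of all genes were called lower. AP-2mu is the medium subunit of the clathrin adaptor AP-2, which gathers vesicle proteins into coated pits. Its signal was 296, 280 and 362 at 3d, 108, 107 and 92.3 at 30d and between 94.5 and 123 on the 60d arrays. The brightest older array, at 123, was far under the dimmest young array, at 280. The level was 3.02-fold lower at 30d and 2.9-fold lower at 60d (log2 changes of -1.60 ± 0.15 and -1.54 ± 0.15, limma adjusted p = 0.000673 and 0.000312). AP-2alpha, the large subunit of the same adaptor, measured 1432, 1207 and 1279 at 3d, 719, 725 and 688 at 30d and 861, 681 and 743 at 60d. It showed the same separation, at -0.87 ± 0.14 for 30d and -0.78 ± 0.14 for 60d (limma adjusted p = 0.00256 and 0.00421). Both genes were called at both ages under all 20 alternatives.

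Synj, the synaptojanin that strips phosphates from membrane lipids so that coats come off, measured 1481, 996 and 1207 at 3d, 785, 796 and 802 at 30d and 822, 772 and 748 at 60d. The older arrays were below the lowest young array and much tighter than the young ones. The change was -0.61 ± 0.15 at 30d and -0.63 ± 0.15 at 60d (limma adjusted p = 0.0117 and 0.0171). The 60d call was lost without 3d replicate 3 or 60d replicate 3, and with only the 6 arrays compared (limma adjusted p = 0.0532, 0.0737 and 0.0735).

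Dap160, the fly intersectin that gathers dynamin and other endocytic proteins, read higher at 30d on a dim signal. It measured 32.3, 46.2 and 25.3 at 3d, 81.6, 62.8 and 68.1 at 30d and 42.3, 52.5 and 53.5 at 60d. All 3 young arrays were below the filter value. The gene passed the filter through 5 of the older arrays, where it is high, so its call at 30d is given as a description only. The difference was 1.05 ± 0.21 at 30d and 0.54 ± 0.21 at 60d. Its other probe set, below the filter, read 21.2, 23.4 and 20.8 at 3d and 15.8, 15.1 and 15.7 at 30d, in the opposite direction, and the stricter filter dropped the gene.

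shi, EndoA and lap were lower at 60d without passing, on the probe sets that stand for them. shi encodes dynamin, which cuts vesicles from the membrane, EndoA is the membrane-bending endophilin A, and lap is the clathrin assembly protein AP180. Their changes at 60d were -0.40 ± 0.13, -0.45 ± 0.16 and -0.38 ± 0.15 (limma adjusted p = 0.0574, 0.0684 and 0.09). For all 3 genes every 60d array was below every 3d array. EndoA read 1517, 1991 and 2241 at 3d, 1560, 1488 and 1384 at 30d and 1514, 1357 and 1282 at 60d. The 3d arrays ran from 1111 to 1355 for shi and from 1216 to 1663 for lap, with replicate 1 the lowest for all 3 genes. Without it the changes were -0.48 ± 0.12, -0.61 ± 0.13 and -0.50 ± 0.13, and all 3 were called (limma adjusted p = 0.0207, 0.0102 and 0.0178).

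Of the 4 vesicle proteins Syngr was lower at both ages and Rph at 30d. Syngr is synaptogyrin, a membrane protein of the vesicle, and it read 2220, 1925 and 2045 at 3d, 1294, 1139 and 1113 at 30d and 1251, 1091 and 1182 at 60d. The ages 30d and 60d overlapped and both lay well under 3d. The changes were -0.80 ± 0.13 at 30d and -0.81 ± 0.13 at 60d (limma adjusted p = 0.00259 and 0.0028), and both calls held under all 20 alternatives. Rph is rabphilin, a binding partner of the vesicle GTPase Rab3, and read 337, 292 and 370 at 3d, 245, 216 and 199 at 30d and 265, 215 and 264 at 60d. It was lowest at 30d, with -0.59 ± 0.15 there (limma adjusted p = 0.0124) and -0.42 ± 0.15 at 60d (limma adjusted p = 0.0722). Its 30d call was lost without 3d replicate 3 or 30d replicate 3 (limma adjusted p = 0.0551 and 0.0595). Syn, the synapsin that holds the reserve pool, and Sap47, a synapse-associated protein, differed by -0.29 ± 0.15 and -0.29 ± 0.13 at 60d (limma adjusted p = 0.189 and 0.126).

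Of the 7 genes of the active zone and of priming, limma called 0 in either comparison with 3d, and also 0 at an unadjusted p under 0.05. As this group was formed after values were seen, its lack of calls is a description only. Of all 8171 genes 1448 were lower and 1443 higher at that unadjusted threshold at 60d, and 2162 and 2136 at 30d. brp is the core scaffold of the fly active zone, Rim, Rbp and Liprin-alpha are its partners, cac is the calcium channel, unc-13 primes vesicles for fusion and Cadps is a related priming factor. Rim read 535, 619 and 630 at 3d, 645, 604 and 589 at 30d and 591, 633 and 607 at 60d. Its ages overlapped throughout, and the change at 60d was 0.04 ± 0.13 with a 95% confidence interval from -0.24 to 0.32. unc-13 read 1756, 1702 and 1660 at 3d, 1549, 1410 and 1534 at 30d and 1547, 1514 and 1354 at 60d. All its older arrays were below all its young ones, with a difference of -0.21 ± 0.12 at 60d (interval -0.49 to 0.06, limma adjusted p = 0.239).

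cac read 1328, 1638 and 1618 at 3d, 1960, 1716 and 1889 at 30d and 1699, 1744 and 1518 at 60d. Its 30d arrays were all above its 3d arrays, with a difference of 0.28 ± 0.14 (limma adjusted p = 0.116), and at 60d the difference was 0.12 ± 0.14 (interval -0.19 to 0.42). The 60d intervals of brp, Rbp, Liprin-alpha and Cadps were -0.24 to 0.53, -0.28 to 0.39, -0.34 to 0.54 and -0.49 to 0.42. The 60d differences of Liprin-alpha and Cadps were -0.16 ± 0.13 and -0.29 ± 0.15 when 3d replicate 1 was left out. Whether the active zone genes differ from the release and endocytic genes was not tested. At 60d these genes also gave 0 calls under each alternative, with 6 of the 7 tested when probe sets were averaged. At 30d cac was called higher after quantile normalization and with the mean of its probe sets. unc-13 was called lower after median centring, and Liprin-alpha higher without 3d replicate 2. These counts rest on the probe set that stands for each gene, or on the mean of its probe sets. Other probe sets of Cadps and Rim were called at 60d, lower and higher in turn. Without 3d replicate 1 another probe set of brp was called lower. Their values are given below.

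**Figure D3:**
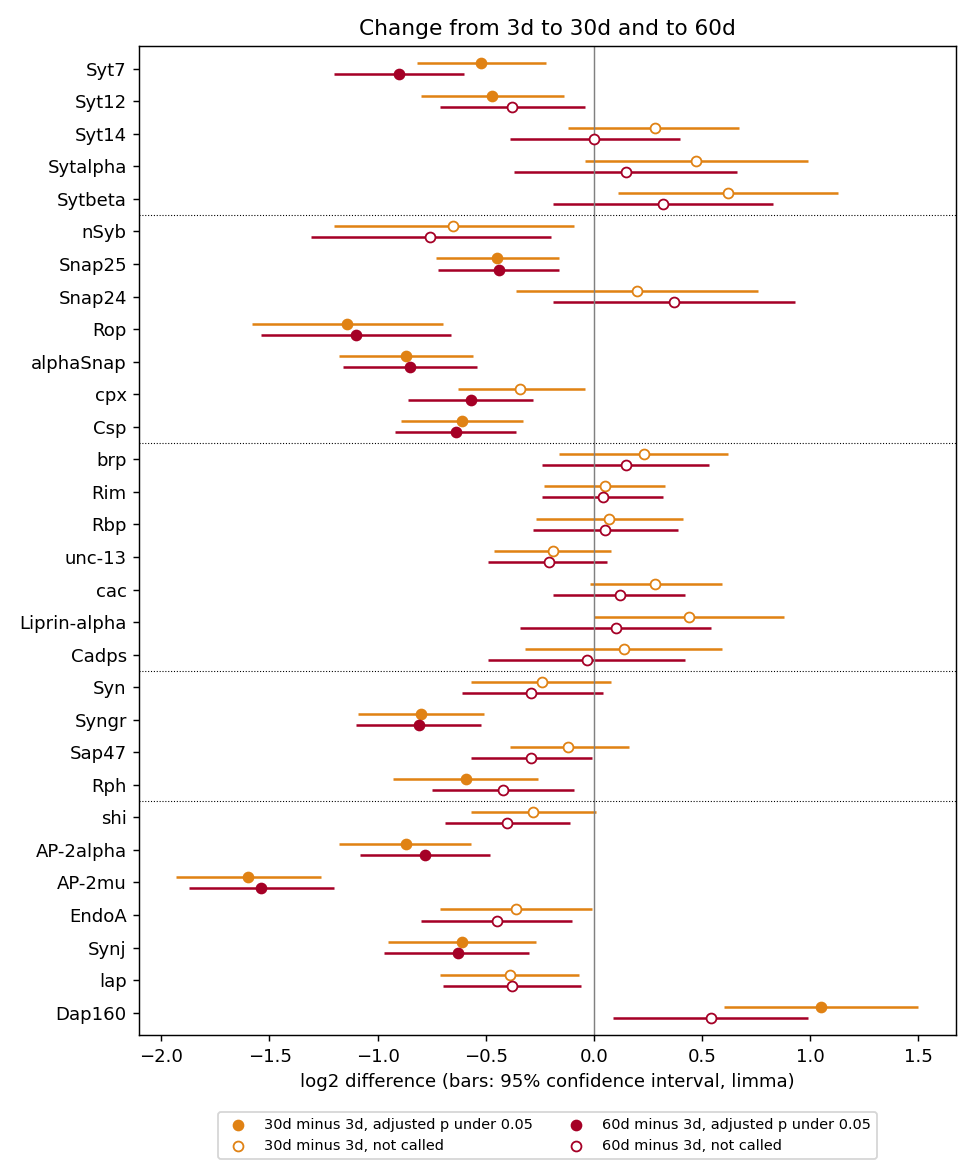
Log2 difference from 3d (x axis) of each synaptic gene at 30d (orange) and 60d (dark red), with 95% confidence intervals from limma; filled points were called. The intervals of AP-2mu run from -1.93 to -1.26 at 30d and from -1.87 to -1.2 at 60d, those of Rim and Rbp straddle 0, and dotted lines part the roles in the order synaptotagmins, SNAREs and partners, active zone and priming, vesicle proteins, endocytosis.

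Separation of the arrays was also counted. For 17 of the 30 genes every 60d array was below every 3d array and for 0 of them above, where 17.6% of all genes lay wholly below and 13.5% wholly above. Between 30d and 3d 17 lay wholly below and 3 wholly above (Sytalpha, cac and Dap160), against 29.6% and 28.3% of all genes. Between 60d and 30d 5 lay wholly below (Syt7, Sytalpha, cpx, Liprin-alpha and Dap160) and 0 above, against 10.1% and 17.2% of all genes.

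From 30d to 60d limma called 0 of the 30 genes in either direction, with 2, Syt7 and Dap160, lower at an unadjusted p under 0.05. Of all 8171 genes 438 were lower and 797 higher at that unadjusted threshold. Over all genes 0.0122% were called lower and 0.526% higher. The 30 changes ran from -0.51 to 0.17 with a median of -0.04, against 0.02 for all genes. A direct test of the intervals, the change from 30d to 60d minus the change from 3d to 30d, called 5 genes above 0 (Rop, alphaSnap, AP-2alpha, AP-2mu and Syngr) and 1 below 0 (Dap160, a description only), where 10.1% of all genes were called above 0 and 8.3% below. For these 5 genes the level had fallen by 30d and the 60d mean was within 0.1 of the 30d mean on the log2 scale. These calls depended on single arrays: 0 were left without 3d replicate 3, without any of the 30d replicates or without 60d replicate 3, and 3 without 60d replicate 1. The 30d arrays enter both intervals.

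For 11 of the 30 genes the array carries more than 1 probe set, 26 in all, and 11 of the probe sets not chosen passed the filter. Fitted over all 9067 probe sets that passed, in which 9.58% were called lower at 60d and 7.64% higher, the probe sets of some genes differed. For shi the chosen probe set changed by -0.40 ± 0.13 at 60d (limma adjusted p = 0.0614), whereas 2 other probe sets changed by -0.66 ± 0.16 and -0.81 ± 0.14 (limma adjusted p = 0.017 and 0.0035). The last of these read 524, 566 and 615 at 3d, 322, 303 and 332 at 30d and 352, 289 and 332 at 60d. All 3 probe sets of shi were thus directed down, and both unchosen ones were also called at 30d (limma adjusted p = 0.00703 and 0.00289), where 19.6% of probe sets were called lower and 21.5% higher.

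Cadps had a second probe set that read 887, 651 and 916 at 3d and 551, 576 and 481 at 60d. It changed by -0.60 ± 0.17 (limma adjusted p = 0.0316), while the chosen one changed by -0.03 ± 0.21 (limma adjusted p = 0.93). They stood closer without 3d replicate 1, at -0.53 ± 0.17 and -0.29 ± 0.15 (limma adjusted p = 0.0469 and 0.148). For lap the second probe set, at 273, 348 and 350 at 3d and 465, 473 and 452 at 30d, was higher at 30d by 0.53 ± 0.17 (limma adjusted p = 0.0318), against -0.39 ± 0.15 for the chosen one (limma adjusted p = 0.0538). Without 3d replicate 1 this second lap probe set was not called (0.41 ± 0.17, limma adjusted p = 0.0592). The probe sets of lap had opposite signs at 30d. They also did at 60d, where the second changed by 0.27 ± 0.17 (limma adjusted p = 0.28). Of the Cadps pair 1 was called. The files do not say which transcripts each probe set detects.

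The third probe set of Rim was called higher at 60d by 0.93 ± 0.29 (limma adjusted p = 0.0475), but its reading of 24.4 on 3d replicate 1 was far below those of 71.1 and 44.6 on the other young arrays. Without that array the change was 0.54 ± 0.19 and not called (limma adjusted p = 0.0595). The second probe set of brp read 36.1 on 3d replicate 1 against 95 and 97.8 on the other 3d arrays. With all arrays it changed by -0.14 ± 0.31 at 60d (limma adjusted p = 0.787), and without that array by -0.60 ± 0.15 (limma adjusted p = 0.019). The chosen brp probe set changed by 0.02 ± 0.17 in that fit without the array (limma adjusted p = 0.931). The second probe set of cpx changed by -0.44 ± 0.23 at 60d (limma adjusted p = 0.196), and by -0.75 ± 0.14 without 3d replicate 1 (limma adjusted p = 0.00533).

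**Figure D4:**
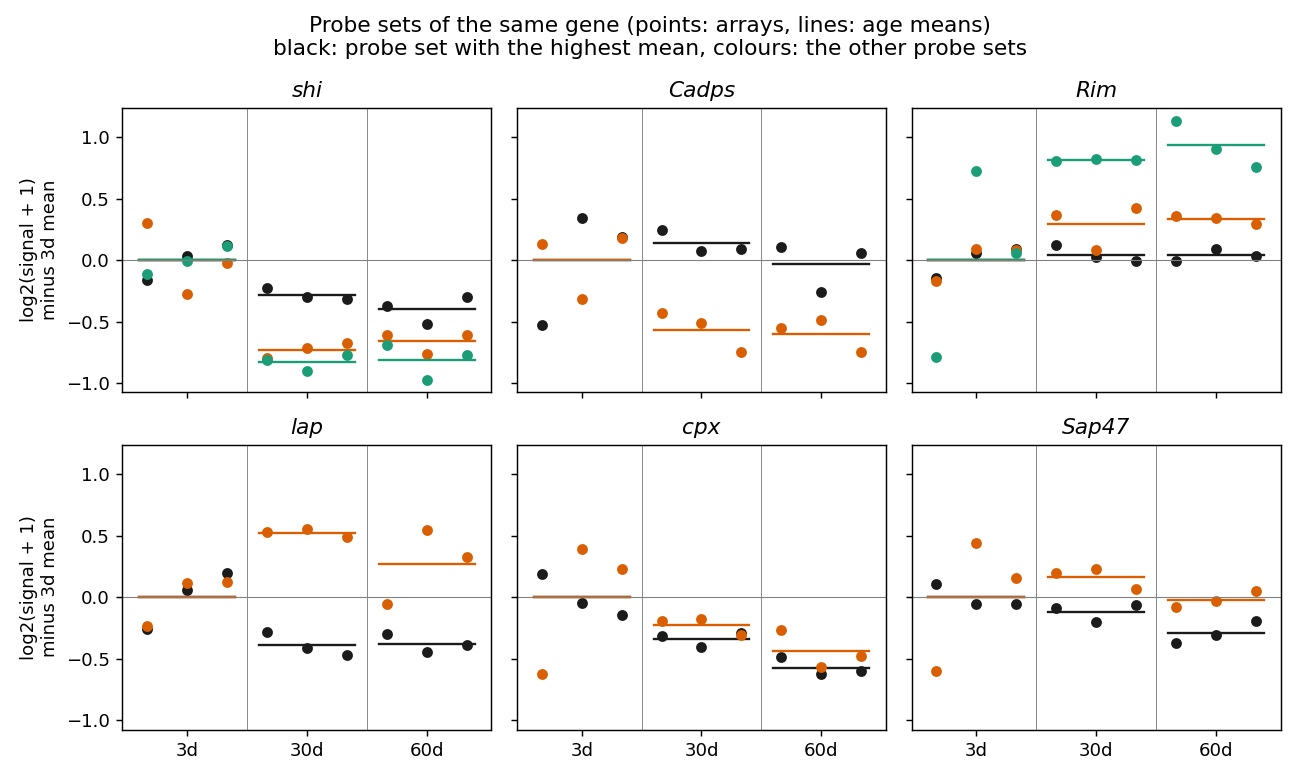
Log2(signal + 1) minus the 3d mean (y axis) for all probe sets that passed the filter in 6 genes; points are arrays, lines are age means, black is the probe set that stands for the gene. The probe sets of shi and cpx run in the same direction, those of lap part in opposite directions, and a Cadps probe set falls while the black one stays near 0.

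Other genes of the same pathways were counted in the same fit. In it 10.5% of all genes were called lower at 60d and 8.03% higher, and 21.3% and 21% at 30d. Of 14 further endocytosis genes tested, 6 were lower at 60d and 10 at 30d, and limma called 0 higher, also at an unadjusted p under 0.05. EndoB, an endophilin of inner membranes, fell by 1.09 ± 0.15 at 60d, AP-1-2beta, the beta subunit shared by the adaptors AP-1 and AP-2, by 0.92 ± 0.18, and nwk, a membrane-bending protein of nerve terminals, by 0.80 ± 0.13 (limma adjusted p = 0.00111, 0.00696 and 0.00273). AP-2sigma, the small subunit of AP-2, named here after its values were seen, changed by -0.64 ± 0.15 at 30d and -0.52 ± 0.15 at 60d (limma adjusted p = 0.00878 and 0.0326). All 4 subunits of AP-2 were thus lower at both ages. The endocytosis count at 60d was 9 without 60d replicate 1 and 10 without both first arrays, where 14.4% and 24.5% of all genes were called lower. It was between 5 and 7 without any other single array, where 4.67% to 14.4% of all genes were called lower.

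Of 13 further fusion genes 4 were lower and 2 higher at 60d, and 5 and 1 at 30d. gammaSnap1, a relative of alphaSnap, fell by 0.88 ± 0.15, Vps45, a Sec1/Munc18 protein of inner membranes, by 0.57 ± 0.13 and the vesicle GTPase Rab3 by 0.54 ± 0.14 (limma adjusted p = 0.00308, 0.0126 and 0.0202). Syb, the synaptobrevin found in most cells, was higher by 0.69 ± 0.14 and the membrane tether Esyt2 by 0.43 ± 0.13 (limma adjusted p = 0.00769 and 0.0411). Syb read 172, 203 and 176 at 3d and 316, 320 and 258 at 60d, opposite in direction to its neuronal relative nSyb, which was not called. The count of higher fusion genes at 60d was 1 without any single array other than 3d replicate 1. The count of lower fusion genes at 60d was 1 without 3d replicate 3 or without 60d replicate 3, and 2 without 60d replicate 2, where 4.67%, 4.68% and 6.13% of all genes were called lower. At 30d it was 2 without 30d replicate 3 and 3 without 3d replicate 3 or 30d replicate 1 or 2, and the higher count was 0 without any of these 4 arrays. Of all genes 10.5% to 13.8% were called lower at 30d in these settings, against 21.3% with all arrays.

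Of 17 further genes of the active zone and of synaptic adhesion, 4 were lower and 1 higher at 60d, and 5 and 1 at 30d. The lower ones included the scaffold veli at -0.98 ± 0.16, the adhesion protein Nlg2 at -0.64 ± 0.15 and Liprin-gamma at -0.66 ± 0.18 (limma adjusted p = 0.0028, 0.0164 and 0.0263), and the higher one was the neuroligin Nlg4 at 0.53 ± 0.16 (limma adjusted p = 0.0388). That lower count was 1 without 3d replicate 3, 60d replicate 2 or 60d replicate 3, and 7 without both first arrays. Of all genes 4.67%, 6.13%, 4.68% and 24.5% were called lower at 60d in these settings. At 30d the lower count was 1 without 30d replicate 3, 3 without 3d replicate 3 or 30d replicate 2, and 9 without both first arrays. Here 10.9%, 10.5%, 12% and 33.9% of all genes were called lower. The higher count at 30d was 3 without 3d replicate 1 and 2 without 60d replicate 1 or 2, where 26.8%, 24.2% and 22.8% of all genes were called higher. Nlg4 was not called without 3d replicate 1 or 3, any of the 30d replicates, or 60d replicate 2 or 3. Of 4 vesicular transporters that passed the filter, VAChT, which loads acetylcholine into vesicles, was lower at 60d by 0.64 ± 0.13 on the log2 scale (limma adjusted p = 0.00733). VAChT read 1945, 1876 and 1926 at 3d, 1436, 1328 and 1226 at 30d and 1317, 1195 and 1191 at 60d, with no overlap between 3d and the older ages.

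**Figure D5:**
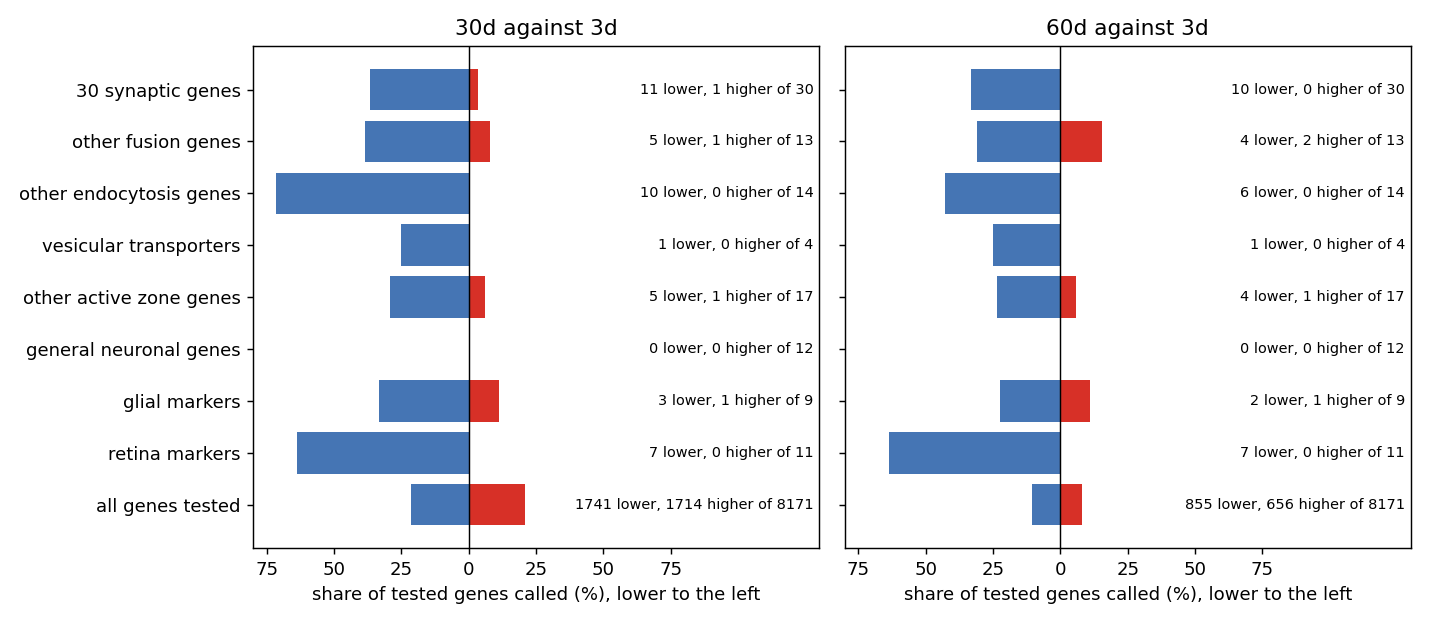
Share of tested genes called (x axis, percent; lower to the left, higher to the right) in each list for 30d and 60d against 3d, with the counts printed beside the bars. Of the other endocytosis genes 10 of 14 were lower at 30d, the general neuronal genes have no bar, and the bottom bar gives all genes tested.

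General neuronal genes were counted beside the vesicle genes. For the 12 tested, among them the RNA-binding proteins elav and fne, the sodium channel gene para and the microtubule proteins futsch and tau, limma called 0 at 60d, also at an unadjusted p under 0.05, and 0 at 30d, with 1 higher unadjusted. Their median change was -0.11 at 60d and -0.04 at 30d, and elav read 1445, 1356 and 1339 at 3d and 1436, 1237 and 1352 at 60d. Their summed signal was 14479 to 15750 on the 3d arrays, 13871 to 15500 at 30d and 13784 to 14649 at 60d. Without 3d replicate 1, 1 of the 12 was called higher and 2 lower at 60d, where 10.7% of all genes were called higher and 14.4% lower.

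Markers of other cells that a dissection could hold also changed. With all arrays 10.5% of all genes were called lower at 60d and 8.03% higher, and 21.3% and 21% at 30d. Of 11 retina markers, whose cells also carry synapses, 7 were lower at 60d and 7 at 30d, and their summed signal was 14289 to 15290 at 3d, 11596 to 12495 at 30d and 9934 to 10961 at 60d. The first by adjusted p were retinin, boss and inaC, at -1.86 ± 0.18, -1.26 ± 0.14 and -0.82 ± 0.12 at 60d (limma adjusted p = 0.000188, 0.000512 and 0.00198). Since retinin passed the filter only through the 3d arrays, where it is high, its calls are a description only. The retina count was 4 at 60d and 3 at 30d without 3d replicate 3, where 4.67% and 10.5% of all genes were called lower. Of 9 glial markers 2 were lower and 1 higher at 60d, and 3 and 1 at 30d, with sums of 8865 to 10678, 6488 to 7341 and 7310 to 8792. The glial ones were e and nrv2, at -1.53 ± 0.20 and -0.51 ± 0.14, and Gli, at 1.32 ± 0.19 (limma adjusted p = 0.000932, 0.0253 and 0.00187). The lower glial count at 60d was 1 without 3d replicate 3, 30d replicate 2 or 60d replicate 2 or 3, where 4.67% to 7.59% of all genes were called lower. Of 12 muscle markers 4 were higher at 60d, led by bt, Mlp60A and Mp20 at 1.47 ± 0.16, 1.56 ± 0.20 and 1.92 ± 0.28 (limma adjusted p = 0.000478, 0.001 and 0.00193). Mlp60A and Mp20 would not have passed the filter without the 60d arrays, where they are high, so their calls are a description only. Sums over the 13 muscle markers with a probe set were 2459 to 3239 at 3d, 3562 to 3721 at 30d and 3633 to 4208 at 60d. The muscle count at 60d was 8 without 3d replicate 1, 7 without 60d replicate 1 and 11 without both. Of all genes 10.7%, 16.2% and 26.6% were called higher at 60d in these settings, against 8.03% with all arrays. At 30d 5 muscle markers were higher, and 2 were without 3d replicate 3 or 30d replicate 2 or 3, and 3 without 30d replicate 1. Of all genes 8.44%, 9.38%, 9.34% and 12% were called higher at 30d in these settings, against 21% with all arrays. Of 10 fat body markers Pepck1 and AkhR were higher at 60d, by 1.42 ± 0.32 and 0.56 ± 0.17 (limma adjusted p = 0.012 and 0.0443), and 1 was higher at 30d. Sums over the 11 fat body markers with a probe set were 6421 to 7742 at 3d, 5602 to 7072 at 30d and 5736 to 13400 at 60d. The fat body count at 60d was 1 without 3d replicate 2, any of the 30d replicates, or 60d replicate 1 or 3, where 2.65% to 16.2% of all genes were called higher. Of 9 haemocyte markers 4 were lower, among them Pxn, vkg and Col4a1 at -1.41 ± 0.18, -1.11 ± 0.24 and -0.48 ± 0.15, and NimC1 was higher by 1.09 ± 0.30 (limma adjusted p = 0.000932, 0.00967, 0.0428 and 0.0278). At 30d 5 haemocyte markers were lower and 1 was higher. PPO1, counted as lower at both ages, and PPO2, counted as lower at 30d, would not have passed the filter without the 3d arrays. They are high on those arrays, so their calls are a description only. Sums over the 10 haemocyte markers with a probe set were 2021 to 2570 at 3d, 1307 to 1413 at 30d and 1487 to 2206 at 60d. The lower haemocyte count at 60d was 2 without 3d replicate 3, any of the 30d replicates, or 60d replicate 2 or 3, where 4.67% to 7.74% of all genes were called lower. Leaving out single arrays moved the higher count between 0 and 2 for fat body at 30d and for haemocyte markers at 60d. Of all genes 8.44% to 26.8% were called higher at 30d in these settings, and 2.65% to 16.2% at 60d. Of 4 gut markers 1 passed the filter, and limma did not call it. The part of other cell types in the changes of the synaptic genes was not tested.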

How the data were processed

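The deposited table holds 1 linear signal intensity per probe set and array, 18952 probe sets on 9 arrays. GCRMA and MAS5 are the tools listed in the submitters' processing notes, and which of them made the deposited intensities is not given in the sources used here. The values are linear and their medians differ between arrays. They were analysed as log2(signal + 1) with no further scaling. Gene tests left out 183 control probe sets. Of the others 13647 have 1 gene in the platform annotation (symbols updated through a RefSeq gene table), 402 several and 4720 none. The highest-mean probe set stood for each gene, and genes with at least 3 arrays above the 40th percentile of all values were kept. limma 3.58.1 (R 4.3.3) fitted the 3 age means to all 9 arrays (6 residual and 5.51 prior degrees of freedom). Contrasts were the 3 pairs of ages and the difference between intervals, beside an F-test, two-sided, with Benjamini-Hochberg adjustment over all genes at 0.05. Figures used matplotlib 3.10.9.

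Every matched member is named. Those called in at least 1 pairwise comparison, and others, are given array by array. Of further pathway lists up to 3 called genes per direction are named by smallest adjusted p at 60d. The members and lists were chosen with earlier results of these data known, and the roles were assigned after values were seen. Alternatives were quantile normalization, median centring, no filter, a filter at the 60th percentile, a pseudocount of 16, the mean of a gene's probe sets, only the 6 arrays compared, array weights, a replicate block, and leaving out arrays. Chosen after seeing the data were the GAPDH ratio as a covariate and the further lists without the first arrays.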

Additional observations from a re-analysis of the deposited data

Results flagged for a closer look

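For 6 synaptic genes, Dap160 among them, the change from 30d to 60d differed from the change from 3d to 30d by limma's test of that difference, on the log2 scale. The difference was 1.18 ± 0.35 for Rop, 0.89 ± 0.25 for alphaSnap, 0.97 ± 0.24 for AP-2alpha, 1.66 ± 0.27 for AP-2mu and 0.80 ± 0.23 for Syngr (limma adjusted p = 0.0419, 0.0382, 0.0331, 0.0307 and 0.0404). For Dap160 it was -1.56 ± 0.36, which is a description only, since the gene passed the filter through the older arrays where it is high. The first 5 were called lower at 30d than at 3d, and their means at 30d and 60d differed by at most 0.09. The dim Dap160 read higher on every 30d array than on any 3d array, and lower on every 60d array than on any 30d array.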

How the results depend on the processing

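All 22 calls of single synaptic genes against 3d kept their direction under each alternative that gave a value. Leaving out 1 array gave 7 to 15 genes lower at 60d than at 3d and 0 to 1 higher, 7 to 16 lower at 30d and 1 to 3 higher, 0 to 0 called between 30d and 60d, 9 to 17 passing the F-test (12 with all arrays) and 0 to 9 with a difference between intervals (6 with all arrays). Median centring gave 17 lower at 60d, 18 lower at 30d and 11 interval calls, and no filter gave 0 interval calls. Under median centring 1997 of all genes were called above 0 in the interval test and 251 below, against 829 and 678 in the deposited scaling. Array weights gave 16 lower and 1 higher at 60d, 17 lower and 2 higher at 30d, 7 lower at 60d than at 30d, 17 interval calls and 21 by the F-test. They put a weight of 4.69 on 60d replicate 3 and 0.158 on 3d replicate 1. With quantile normalization, a pseudocount of 16 and only the 6 arrays compared 2 genes were higher at 30d. The GAPDH ratio as a covariate gave 10 interval calls. Leaving out both first arrays gave 17 lower and 1 higher at 60d and 10 interval calls. Same-numbered arrays did not deviate together (correlations from -0.33 to 0.14), so the numbers were not taken as pairs. With the replicate block 9 genes were lower at 60d, 10 lower and 2 higher at 30d, and 4 differed between intervals. No share of all genes stands beside the other counts in this paragraph, so they do not set the synaptic genes apart. The causes of the moves in these counts were not tested. The array number and dim signals limit what can be seen, Dap160 above all.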
